A study of Arabidopsis thaliana with 12 samples.

Results

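AT1G68660 encodes ClpS1, the substrate adaptor of the plastid Clp protease of Arabidopsis thaliana. It is 1 gene of the 692 array features that the platform's gene table ties to exactly 1 gene, among 3439 features in all. It was chosen by its log2 difference between the genotypes in these same 12 samples, where it was among the largest falls, so its difference between the genotypes is described here and carries no test. The feature bears the number 4397 and was matched through the gene table's identifier.

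The arrays compared 6 wild-type (WT) samples with 6 samples of the prors2 line, both of ecotype Columbia 0. The labels describe prors2 as a mutant that lacks prolyl-tRNA synthetase, the enzyme that charges the proline tRNA; they give no allele, tissue, age, growth condition or treatment, and do not say whether samples came from separate plants. The spread between samples given here may therefore be technical. No feature of the array is tied to AT5G52520 or AT3G62120, the genes of the organellar and the cytosolic prolyl-tRNA synthetase, so the genotype labels were not checked at the transcript level. The 14 marker loci listed for seed, pollen, root, senescent and green leaf tissue had 0 single-gene features, so the tissue was not checked either.

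The Clp protease is the main soluble protease of the chloroplast stroma. A barrel of ClpP and ClpR subunits cuts proteins that are unfolded and threaded in by ClpC or ClpD, ring-shaped chaperones that burn ATP. ClpS1 does not cut proteins itself: like its bacterial relative ClpS it binds ClpC and proteins with certain N-terminal residues, and in Arabidopsis it acts together with another adaptor, ClpF, on glutamyl-tRNA reductase, the enzyme of the regulated early step of chlorophyll and haem synthesis.

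In WT, AT1G68660 had a deposited relative intensity of 1.52, 1.57, 1.61, 1.57, 1.68 and 1.69 in replicates 1 to 6. In prors2 it had 0.528, 0.649, 0.653, 0.601, 0.538 and 0.559. Every prors2 sample lay below every WT sample, and the lowest WT value was 2.33 times the highest prors2 value. The means were 1.61 ± 0.067 (SD, n = 6) in WT and 0.588 ± 0.055 in prors2, so the mutant kept 36.6% of the WT signal. The scale runs from 0 to 100, the reference value behind it is not stated, and the values of this gene are at neither end. In RNA from whole samples, fewer cells that express a gene and less of its RNA per cell cannot be told apart.

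Values of prors2 that all lie below WT were found in 6.38% of the 3024 tested features on the deposited scale, and values that all lie above WT in 37.2%. That imbalance comes with a shift of the whole array. The median feature stood between 0.135 and 0.169 on the WT arrays and between 0.279 and 0.305 on the prors2 arrays, and 368 to 396 features were at 0 in WT against 262 to 316 in prors2. On the deposited scale AT1G68660 thus went down while the median feature of the array went up.

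Its place on each array does not depend on any scaling by 1 factor per array. Counted from the brightest of the 3439 features, AT1G68660 stood at positions 262, 252, 266, 276, 222 and 226 on the WT arrays. On the prors2 arrays it stood at 937, 766, 811, 898, 961 and 945. On average 7.26% ± 0.64 (SD, n = 6) of the features were brighter than it in WT and 25.7% ± 2.3 in prors2. In multiples of the array's own median its signal went from 10.5 ± 1.4 to 2.01 ± 0.16.

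**Figure D1:**
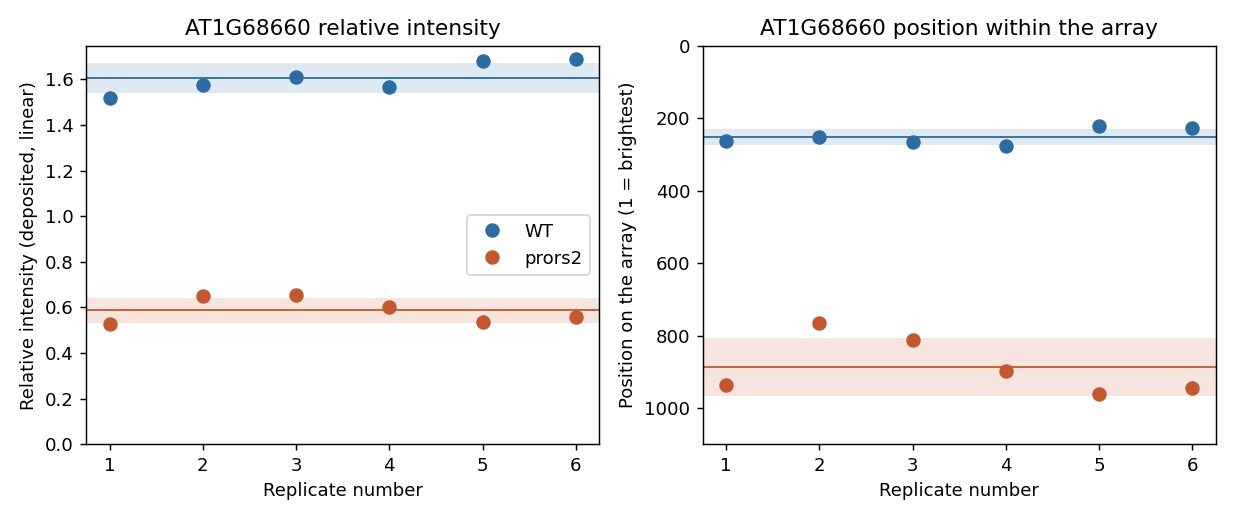
Relative intensity of AT1G68660 (left) and its position among the 3439 features of each array, with the brightest at the top (right), by replicate number for 6 WT and 6 prors2 samples; lines are group means and bands are ± 1 SD. The groups do not overlap in either panel, with WT between 1.52 and 1.69 and prors2 between 0.528 and 0.653 on the left.

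After quantile normalization of the log2 values, the mean of AT1G68660 was 0.76 ± 0.11 (SD, n = 6) in WT and -1.05 ± 0.13 in prors2. The log2 difference, prors2 minus WT, was -1.81 (SE 0.093), which is 3.51-fold lower. The limma fit across the array, by which the gene was chosen, called 47.2% of the tested features at an adjusted p under 0.05, 24.8% higher and 22.4% lower.

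The size of the fall depended on the scaling, and its direction did not. On the deposited values the log2 difference was -1.45 (SE 0.088) while the median over all tested features was 0.76. With the arrays set to equal sums it was -1.53 (SE 0.087) against a median of 0.69. Median centring, which sets the median of each array to 0, gave the largest fall of the 7 scalings, -2.28 (SE 0.10) against a median of -0.06. Under it the 51 other single-gene features within 2-fold of the WT intensity of AT1G68660 had a median of -0.78. Centring on the upper quartile gave -1.97 (SE 0.098), cyclic loess -1.79 (SE 0.095), and quantile normalization with zeros at the lowest positive value -1.85 (SE 0.084). Their medians over all tested features were 0.25, 0.02 and -0.04.

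By replicate number the normalized log2 differences of AT1G68660 were -1.84, -1.61, -1.61, -1.70, -2.08 and -2.02. All 6 were below 0, as they were under each of the 7 scalings, and they ranged from -1.28 to -1.64 on the deposited values. Replicates 5 and 6 had the largest falls under every scaling: their WT values were the highest of the group, and their prors2 values were among the 3 lowest. As a share of the same-numbered WT sample, the deposited prors2 signal was 34.7%, 41.2%, 40.6%, 38.4%, 32.0% and 33.1%.

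Averaged over neighbouring numbers, the normalized difference of AT1G68660 was -1.72 in replicates 1 and 2, -1.66 in replicates 3 and 4, and -2.05 in replicates 5 and 6. The labels name no such sets, which were known from earlier results of these data: over 2654 complete features, deviations from the group means of WT and prors2 samples of other numbers correlated at a mean of 0.12 within the sets and -0.10 between them. The spread of AT1G68660 within the groups had a residual SD of 0.12 on the log2 scale, a value that also enters the fit by which the gene was chosen. Of the 51 other single-gene features within 2-fold of its WT intensity, 4 had a smaller residual SD, and their median was 0.23. Its differences by replicate number spanned 0.470, close to the median span of 0.466 over such features with values in all 12 samples.

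**Figure D2:**
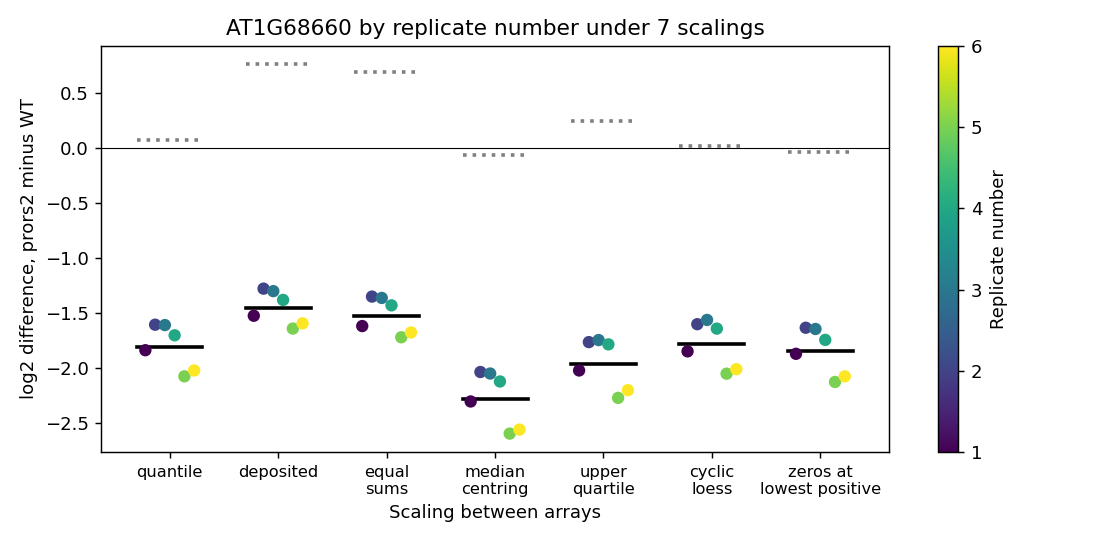
log2 difference of AT1G68660, prors2 minus WT, for each replicate number (points, coloured by number) under 7 scalings between arrays; black bars are the fitted difference of this gene and dotted grey bars the median over all 3024 tested features. Every point is below 0, while the median feature moves from 0.76 on the deposited values to -0.06 after median centring.

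Among the 606 tested single-gene features, AT1G68660 was number 34 from the top in mean WT intensity and number 138 in prors2. The 3 features just above it in WT were AT2G37510, AT1G03810 and AT1G17160, at 1.62 ± 0.075, 1.63 ± 0.31 and 1.64 ± 0.083 (SD, n = 6). The 3 just below it were AT4G29750, AT1G21660 and AT3G52070, at 1.55 ± 1.2, 1.53 ± 0.21 and 1.53 ± 0.37. All 6 lay within 1 of their own SDs of AT1G68660 in WT, so this order is not resolved by the samples. In prors2 the same 6 features were spread from 0.493 ± 0.11 for AT3G52070 to 2.59 ± 1.9 for AT4G29750, and AT1G68660 was the second lowest of these 7. The means of AT4G29750 join unlike replicates. Replicates 1 to 4 ran from 1.92 to 2.69 in WT and from 3.60 to 3.97 in prors2. Replicates 5 and 6 were at 0.118 and 0.0921 in WT and at 0.119 and 0.134 in prors2.

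A broader set of 52 single-gene features had a mean WT intensity within 2-fold of AT1G68660, from 0.803 to 3.21. Within it the gene stood between positions 12 and 22 from the brightest on the WT arrays and between 45 and 47 on the prors2 arrays. Of the other 51 features, limma called 19 lower (37.3%) and 14 higher and did not call 18. Over all tested features 22.4% were called lower and 24.8% higher. The median log2 difference of the 51 was -0.22 and the range -2.50 to 2.38. The fall of AT1G68660 was the sixth largest of the 52, and 12 of the others were at least 2-fold lower. Relative to the median of the 51 others it lay at -1.59 after quantile normalization and at -1.50 under each scaling by 1 factor per array.

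The larger falls in this set were those of AT1G21500 at -2.50 (SE 0.14), AT5G55580 at -2.30 (SE 0.18), AT3G52070 at -2.06 (SE 0.21), AT2G21530 at -1.91 (SE 0.18) and GH9B8 (AT2G32990) at -1.88 (SE 1.0). AT5G55580 encodes mTERF9, an organellar nucleic acid-binding protein, and the fit left out its 1 prors2 sample at 0. GH9B8, a glycosyl hydrolase, was at 0 in WT replicates 5 and 6 and prors2 replicate 6, which the fit left out. It ranged up to 1.40 in WT and 0.980 in prors2. Its place before AT1G68660 rests on 1 low value, 0.0296 in prors2 replicate 5. Without that sample the log2 difference of GH9B8 was -0.87 (limma adjusted p = 0.00115). With replicate numbers as a block GH9B8 lay at -0.85, and AT1G68660, still at -1.81, moved to the fifth place. The next falls after AT1G68660 were those of AT1G51350 at -1.71 (SE 0.11), AT5G58330, the plastid NADP-dependent malate dehydrogenase, at -1.38 (SE 0.14) and AT5G59060 at -1.31 (SE 0.30). AT1G68660 and AT1G51350 differed by 0.099, about the size of either SE.

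**Figure D3:**
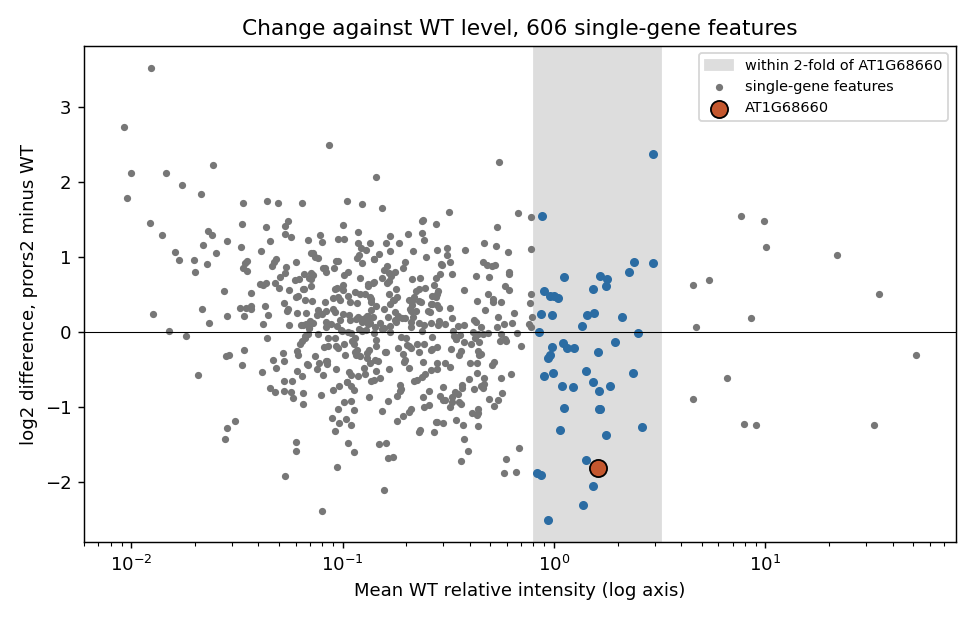
log2 difference, prors2 minus WT, after quantile normalization against the mean deposited WT intensity (log axis) for the 606 tested single-gene features; the grey band and blue points mark the 52 within 2-fold of AT1G68660, which is the large orange point. It lies at -1.81, with 5 of the 51 other features in the band below it.

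The rest of the Clp system was hardly measured. Of 20 other loci of the Clp core, its chaperones and adaptors, 2 had a single-gene feature, 2 were found only on features tied to several genes, and 16 had no feature listed for them. ClpF (AT2G03390), the partner adaptor of ClpS1, ran from 0.0626 over a median of 0.148 to 0.232 in WT and from 0.121 over 0.203 to 0.387 in prors2. The groups overlapped, and the direction turned with the scaling. Its log2 difference was -0.19 (SE 0.33, 95% interval -0.91 to 0.53, limma adjusted p = 0.676) after quantile normalization and 0.69 (SE 0.33, limma adjusted p = 0.0879) on the deposited values. AT5G49840, the other locus with a single-gene feature, encodes a ClpX-type chaperone and not the ClpC or ClpD type described above. Its value was 0 on all 12 arrays, and it was not tested. The ClpP, ClpR, ClpC and ClpD genes are not analysed here.

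Across the 6 lists around ClpS1, 106 other loci were looked for and 7 were tested, of which limma called 1 higher and 2 lower and did not call 4. At equal sums and with no scaling the counts were 4 higher and 1 lower, and after centring on the upper quartile 2 higher and 2 lower. The lists of N-terminal processing and N-degron enzymes and of aromatic amino acid synthesis had 0 tested members. With 7 genes tested in the 6 lists, a share of calls is a description of these genes only. Over all 3024 tested features 47.2% were called after quantile normalization. With no scaling 2016 were called, 1747 of them higher, and at equal sums 1962, 1664 of them higher. After centring on the upper quartile 1558 were called, 969 of them higher.

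Among other plastid proteases 1 of 3 tested genes rose. AT5G46390, of the family of C-terminal processing peptidases that includes the enzyme maturing the D1 protein of photosystem II, ran from 0.153 over a median of 0.237 to 0.317 in WT and from 0.823 over 0.961 to 1.03 in prors2. All 6 prors2 samples lay above all 6 WT samples on this deposited scale, as they did for 37.2% of all tested features. The log2 difference was 1.48 (SE 0.13, limma adjusted p = 2.56e-06), and it ran from 1.22 after median centring to 2.04 on the deposited values, called higher under all 7 scalings. The platform table lists AT5G46390 alone on the feature used here and together with 2 other genes on 1 further feature; whether the feature used here also reads related genes was not tested.

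The other measured protease genes were SPPA (AT1G73990), a light-inducible thylakoid protease, and AT2G47390, a stromal glutamyl endopeptidase. Their log2 differences were 0.19 (SE 0.21, 95% interval -0.27 to 0.65, limma adjusted p = 0.502) and 0.13 (SE 0.25, 95% interval -0.41 to 0.66, limma adjusted p = 0.714). The plastid chaperonin gene Cpn60beta3 (AT5G56500), the 1 tested member of the chaperone list, differed by 0.21 (SE 0.14, 95% interval -0.11 to 0.52, limma adjusted p = 0.265). On the deposited values all 3 were called higher, at 1.05, 0.99 and 1.04 (limma adjusted p = 0.00145, 0.00646 and 2.96e-05). That scaling holds the upward shift of the array, with its median of 0.76. On it all prors2 values of SPPA and of Cpn60beta3 also lay above all WT values, as they did for 37.2% of all tested features. Of the 3024 tested features 1747 were called higher on that scale.

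The pathway that ClpS1 touches through glutamyl-tRNA reductase is tetrapyrrole synthesis. Of 30 loci 2 had a single-gene feature, and both were called lower after quantile normalization, beside 22.4% of all tested features. With 2 genes this describes these genes only, and neither is a glutamyl-tRNA reductase gene. AT1G74470 encodes the geranylgeranyl reductase, which supplies the phytyl side chain of chlorophyll. Its intensity ran from 4.34 over a median of 4.54 to 4.87 in WT and from 2.08 over 2.35 to 2.57 in prors2. These groups did not overlap, and prors2 lay wholly below WT in 6.38% of all tested features on the deposited scale. The log2 difference of AT1G74470 was -0.90 (SE 0.080, limma adjusted p = 2.90e-06). CHLM (AT4G25080), the magnesium protoporphyrin methyltransferase of chlorophyll synthesis, ran from 0.360 over 0.417 to 0.505 in WT and from 0.399 over 0.441 to 0.520 in prors2, where the groups overlapped. Its difference was -0.55 (SE 0.12, limma adjusted p = 0.00247) after quantile normalization and 0.06 (limma adjusted p = 0.641) on the deposited values.

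**Figure D4:**
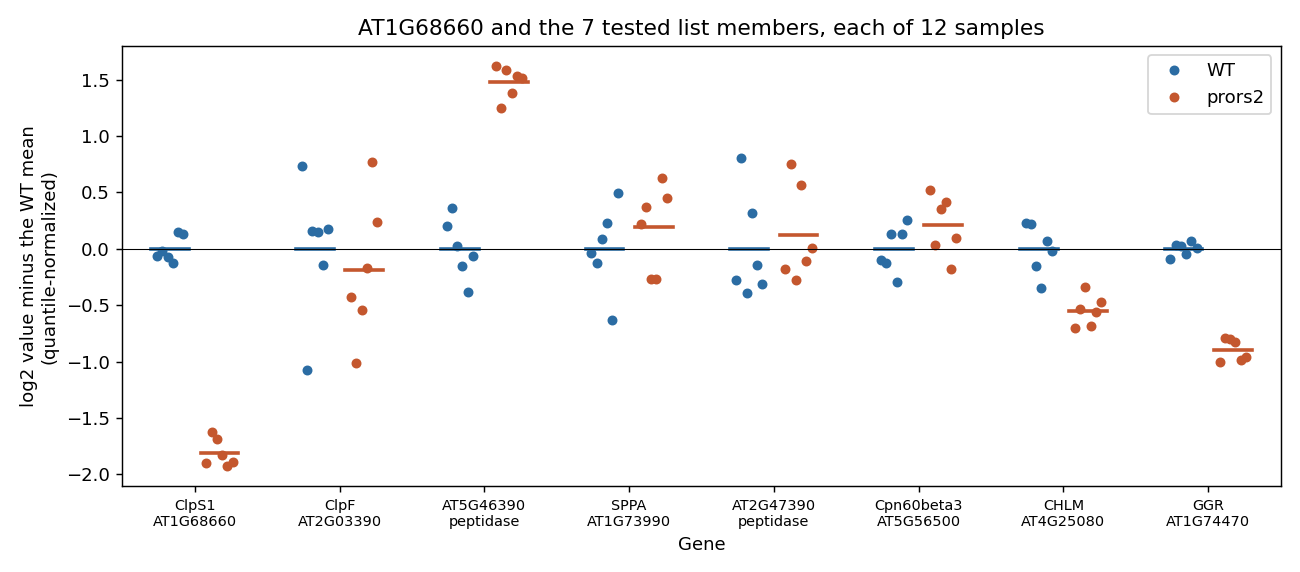
Quantile-normalized log2 values minus the WT mean for AT1G68660 and the 7 tested members of the lists, with 1 point per sample (WT blue, prors2 orange) and group means as bars. AT1G68660 lies lowest at -1.81 and AT5G46390 highest at 1.48. On these normalized values ClpF, SPPA, AT2G47390, Cpn60beta3 and CHLM overlap between the groups.

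Of 509 other single-gene features with values above 0 in all 12 samples, the profile of AT1G74470 was the most like that of AT1G68660, with a Pearson r of 0.99 over the 12 normalized values. Next were LHB1B2 (AT2G34420), a chlorophyll a/b-binding antenna protein of photosystem II, at 0.99, AT1G21500 at 0.99, AT1G17160 at 0.98 and AT5G46560 at 0.97. These coefficients rest mainly on the gap between the genotypes, since the samples form 2 separate groups; 28 features had an r above 0.9 and 49 below -0.9. The profiles least alike were those of CML30 (AT2G15680), a calmodulin-like protein, AT3G09080 and AT2G36920, each at -0.98, and all 3 were higher in prors2. With Spearman's rho 1 of the 5 most alike was among the top 5, and with median-centred values 4 were.

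Taking out the genotype leaves the deviations of each sample from its group mean. By these AT1G74470 was again the most alike, with an r of 0.77 over 12 samples, followed by AGL54 (AT5G27090), a MADS-box protein, at 0.74 and AT4G37230 at 0.73. The last genes were dim. Mean deposited intensity in WT and prors2 was 0.180 and 0.149 for AGL54 and 0.0455 and 0.0635 for AT4G37230. For AT1G74470 it was 4.57 and 2.34. Within the 6 WT samples the r of AT1G74470 and AT1G68660 was 0.57, and within the 6 prors2 samples 0.90. In 9 of 12 samples both genes lay on the same side of their group means. In prors2, replicates 2 and 3 were the highest for both genes and replicates 1, 5 and 6 the lowest. The most alike of 509 features is high by selection, the samples share the array with its scaling, and no test was made.

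**Figure D5:**
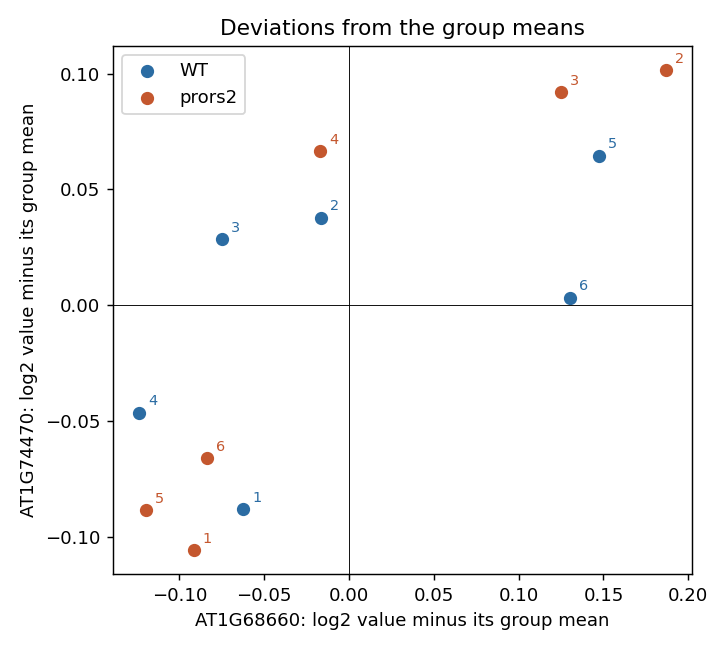
Deviations of AT1G68660 and AT1G74470 from their group means (quantile-normalized log2 values) in 6 WT and 6 prors2 samples, with replicate numbers. In 9 of 12 samples both deviations have the same sign; the r is 0.77 over all 12.

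A ratio of 2 features on the same array cancels any factor common to the array. The deposited ratio of AT1G68660 to AT1G74470, set to a mean of 100% in WT, ran from 93.7% to 110% there and from 66.8% to 75.4% in prors2, with a prors2 mean of 71.4% ± 3.4 (SD, n = 6). Relative to the WT mean, AT1G68660 was thus reduced more than the geranylgeranyl reductase gene in every prors2 sample. Against LHB1B2 the ratio ran from 90.2% to 106% in WT and from 99.8% to 128% in prors2, so the groups overlapped. Quantile normalization turned the order of this pair, with log2 differences of -1.81 for AT1G68660 and -1.23 for LHB1B2, against -1.45 and -1.63 on the deposited values. Against AT5G46390 the prors2 ratio was 8.64% ± 1.3 of the WT mean, as the peptidase signal rose while that of AT1G68660 fell.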

How the data were processed

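Total RNA of 12 samples was measured on 1-channel arrays; groups and replicate numbers come from the sample titles. The deposited table holds relative intensity values from 0 to 100 on a linear scale. The authors' scanner, background correction and scaling are not stated. The table had 3439 features, 0 value columns of other samples and 0 identical columns. Because medians and sums of the arrays were over 5% apart, log2 values (a value of 0 counted as missing) were quantile-normalized. They were fitted in R 4.3.3 with limma 3.58.1 (lmFit, eBayes; group as the only term; two-sided). Adjustment by Benjamini and Hochberg ran over the 3024 features with at least 4 of 6 values above 0 in each group, threshold 0.05. The fit was tried on simulated data with independent noise in each sample. Those data held no pairs or sets of replicate numbers, so they do not give the error rate of the calls here.

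Only features tied to 1 gene were named: 692, against 870 tied to several genes and 1877 not listed; 690 of the 692 matched the TAIR10.1 gene table. No array build is stated, so no coordinates are given. The gene and the lists were chosen with earlier results of these data known. Other genes are named as list members, as the 5 most and 3 least alike profiles, the 3 most alike in deviations, the 3 nearest above and below in WT intensity, and up to 5 larger and 3 next falls within 2-fold of that intensity.

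The replicate numbers were checked for pairing over 2654 complete features. Deviations from the group means correlated between 0.212 and 0.399 for a WT and a prors2 sample of the same number, and 12 of 12 samples had their highest correlation with that partner. The numbers were therefore treated as pairs in an alternative fit, from the data alone, since the labels do not say so. Other alternatives were other scalings, zeros at the lowest positive value, filters on low values, other variance models, other intensity windows and leaving out each sample. The main fit takes the 6 samples of a group as independent. If neighbouring numbers are repeat measurements of the same material, the SEs, intervals and adjusted p-values given here are too small. The labels do not settle this, and the number of arrays limits the precision.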

Additional observations from a re-analysis of the deposited data

Results flagged for a closer look

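In a check of 56 groups of 6 samples over the 28 named genes with values in the fit, 1 had a sample far from the others; chance gives about 1 in 20. The relative intensity of AT1G21500 in prors2 replicate 1 was 0.170, and the nearest other prors2 sample was at 0.247. No sample of AT1G68660 stood apart in this way in either group.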

How the results depend on the processing

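AT1G68660 lay below 0 under every alternative run. Its log2 difference of -1.81 was the same with replicate numbers as a block and moved by more than its SD within groups under 4 scalings, to -2.28 with median centring, -1.97 with the upper quartile, -1.53 at equal sums and -1.45 with no scaling; leaving out each sample gave -1.86 to -1.76. Its place among the falls at similar WT intensity was 3 of 31 in a 1.5-fold window, 17 of 334 when all tested features were ranked, and 5 to 7 when a sample was left out. Of the 5 features most like it, 1 was kept with Spearman's rho and 1 with deviations from the group means. The deposited values gave 1747 higher and 269 lower calls and equal sums 1664 and 298, against 751 and 676; the higher share of calls was 86.7%, 84.8% and 52.6%, and 40.5% after median centring. Leaving out a sample gave 1329 to 1390 calls, 702 to 737 higher and 627 to 665 lower. Of the list members 5 were called at equal sums and with no scaling, 4 higher and 1 lower, and 2 were higher after upper-quartile centring; leaving out a sample kept the counts at 3, with 1 higher and 2 lower. The sign turned for ClpF with no scaling (0.69), at equal sums (0.61) and with upper-quartile centring (0.17), for CHLM with no scaling (0.061), for AT4G37230 with no scaling (0.22) and at equal sums (0.15), for AT1G21660 (-0.16) and AT4G29750 (-0.22) with median centring, and for GH9B8 with zeros at the lowest positive value (0.62). AT4G29750, which was not called, ran from -0.28 to 1.01 when a sample was left out. Calls were lost for AT5G55580 when zeros took the lowest value above 0 (-4.96 against -2.30, limma adjusted p = 0.132), AGL54 with no scaling (-0.28, limma adjusted p = 0.128) and at equal sums (-0.36, limma adjusted p = 0.0568), CHLM at equal sums (-0.01, limma adjusted p = 0.931) and AT1G21660 with the upper quartile (0.15, limma adjusted p = 0.209). With replicate numbers as a block 1605 features were called, and GH9B8 passed (-0.85); no other call among the 27 genes named beside AT1G68660 changed. The causes were not tested.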
